A study of Medicago truncatula with 16 samples.

Results

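Transcripts of 3 plant defensin genes were followed in germinating *Medicago truncatula* seeds, *MtPDF51* (MtrunA17_Chr8g0385301, on chromosome 8), *MtPDF32* (MtrunA17_Chr2g0317741, on chromosome 2) and *MtPDF33* (MtrunA17_Chr2g0317751, the next identifier to *MtPDF32* on chromosome 2). They were taken by identifier and are 3 of the 44473 genes of the count table. The study named them among its 88 DT-DAR-DEGs. These come from a cluster of genes with more transcript in 1 mm radicles after osmotic treatment. The study describes this cluster as significantly raised only there. The 88 genes also lie in chromatin that was more open in those radicles than in untreated radicles of 1 mm and 5 mm. RNA-Seq covered cotyledons (C) and radicles (R), extracted separately from seeds of the cultivar A17 whose radicle had grown to 5 mm or 1 mm, with PEG treatment (P) or without it. This gives the groups C5P, C5, C1P, C1, R5P, R5, R1P and R1, with 2 biological replicates each and 16 libraries in all. PEG stands for a PEG8000 solution at -1.7 MPa, applied for 3 days at 10 °C in the dark. As the design has no seeds held in the cold and dark in water alone, the osmotic treatment and these 3 days cannot be told apart. The sources differ on the number of seeds pooled per sample and on whether the tissue was dried before extraction.

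Defensins are small secreted peptides whose cysteines form disulfide bridges around a compact fold, and many of them inhibit the growth of fungi. In several plants they accumulate in seeds, and radish seeds release theirs when the seed coat breaks. In legumes the cotyledons are the storage organs of the embryo, while the radicle is the embryonic root, which emerges first and loses desiccation tolerance as it elongates. PEG of high molecular weight withholds water without entering the cells, and a mild PEG treatment is the classical way to bring desiccation tolerance back to a radicle that has just emerged. The annotation given with the study calls *MtPDF32* a defensin of the knottin and scorpion toxin type and *MtPDF33* a knottin of the scorpion toxin type. It gives the acronym MtPDF51 to a gene that it describes as a putative oxidoreductase, so that the defensin identity of this member rests on its name.

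Each library held between 22012976 and 23257652 estimated counts. Levels are CPM, a gene's counts relative to the size of its library, with library sizes scaled by TMM factors, which correct for a few abundant transcripts taking much of a library. Gene lengths were not used, so that CPM values are compared within a gene and not between genes. The 85 chloroplast-encoded identifiers, used as a check of the tissue, took 0.313% to 4.06% of the counts in cotyledon libraries and 0.0460% to 0.265% in radicle libraries, without overlap. One library stood apart, C1P replicate 2, with the chloroplast-encoded share of 4.06% against at most 0.923% in the other cotyledon libraries and with the lowest TMM factor (0.709). For *MtPDF51*, *MtPDF32* and *MtPDF33*, the log2 fold changes of comparisons with C1P are also given without this library. Correlations, gene lists, shares of all genes called and other named genes are given with it only. Replicates differed by more than sampling noise in every group, with a chi-square per gene of 9.67 to 120.8 and the highest value in C1P. The p-values measure the spread between these samples, and the sources do not say whether replicates came from separate batches of seeds. In whole tissue, fewer cells of a type and less RNA per cell cannot be told apart.

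*MtPDF51* was highest in PEG-treated radicles. Its level was 2.03 and 2.14 CPM in C5P, 0.464 and 0.180 CPM in C5, 7.23 and 18.7 CPM in C1P, and 0.372 and 0.260 CPM in C1. In radicles it was 45.8 and 83.4 CPM in R5P, 0.0399 and 0.271 CPM in R5, 435 and 428 CPM in R1P, and 0.369 and 1.31 CPM in R1. The group means fell in the order R1P, R5P, C1P, C5P, R1, C5, C1 and R5. The 4 PEG-treated groups came first and did not overlap with each other or with an untreated group. In the 4 untreated groups, each of which overlapped with its neighbour in this order, the gene had between 1 and 34 counts per library.

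*MtPDF32* was highest in cotyledons of the 1 mm stage. It stood at 27.6 and 50.8 CPM in C5P, 10.2 and 4.87 CPM in C5, 145 and 246 CPM in C1P, and 61.3 and 55.1 CPM in C1. In radicles it reached 7.18 and 18.2 CPM in R5P, 0.0399 and 0.155 CPM in R5, 30.0 and 23.7 CPM in R1P, and 0.984 and 1.08 CPM in R1. Its means fell in the order C1P, C1, C5P, R1P, R5P, C5, R1 and R5, in which C5P overlapped with R1P, and R5P with C5, while the other neighbours were apart. Untreated C1 cotyledons thus held more *MtPDF32* than PEG-treated radicles of either stage. In R5 it had 1 and 4 counts, at which no precise level can be given.

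*MtPDF33* was also highest in cotyledons of the 1 mm stage. The cotyledon values were 35.2 and 57.9 CPM in C5P, 34.3 and 16.2 CPM in C5, 187 and 528 CPM in C1P, and 57.7 and 57.6 CPM in C1. The radicle values were 15.3 and 24.2 CPM in R5P, 0.758 and 0.697 CPM in R5, 43.2 and 41.2 CPM in R1P, and 4.22 and 2.73 CPM in R1. The means fell in the order C1P, C1, C5P, R1P, C5, R5P, R1 and R5, and the neighbours C1 and C5P, C5P and R1P, and C5 and R5P overlapped. The 2 C1P libraries were the farthest apart, with the higher value in replicate 2, the library with the high chloroplast-encoded share.

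**Figure D1:**
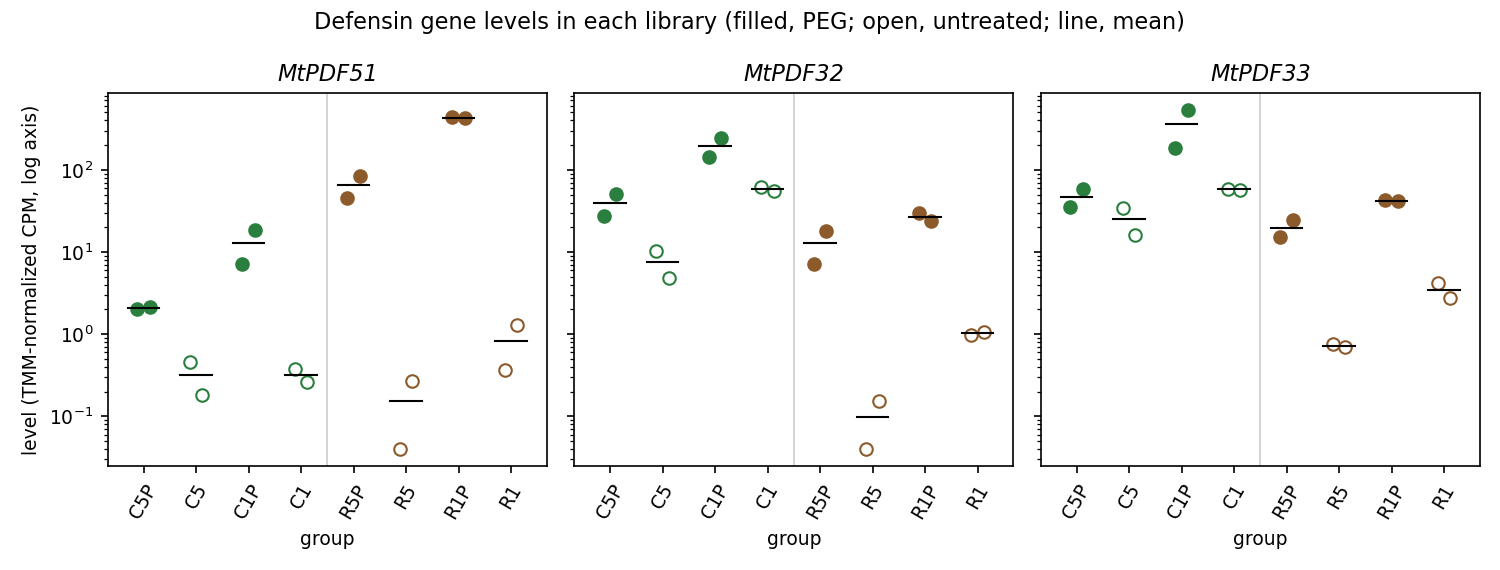
Levels of the 3 genes in each library, as TMM-normalized CPM on a log axis, with cotyledon groups (green) left of radicle groups (brown), filled points for PEG, open points for untreated and a line at the mean of 2 libraries. *MtPDF51* peaks in R1P at 435 and 428 CPM, whereas *MtPDF32* and *MtPDF33* peak in C1P.

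The first comparison asked whether cotyledons and radicles of the same stage and treatment carried different amounts of each defensin transcript. It was tested with edgeR's quasi-likelihood test over all 16 libraries and 25524 genes, with Benjamini-Hochberg adjusted p-values. Calls required a log2 fold change beyond 1 in either direction together with an adjusted p below 0.05. The radicle libraries that enter here also served the study in choosing these genes, by R1P against R1 and by a clustering of R1, R1P, R5 and R5P, whereas the cotyledon libraries did not. These tests are therefore not independent of that choice. A choice for high R1P over R1 favours lower cotyledon values in C1P against R1P and higher ones in C1 against R1. A pair of groups of 2 libraries cannot give a two-sided exact permutation p under 0.333, so that the error rests on the spread shared across groups. The coefficient of variation between replicates was 0.296 in the cotyledon fit, 0.175 in the radicle fit and 0.247 in the 16-library fit. The shared value can thus understate the error of cotyledon levels.

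*MtPDF51* was lower in cotyledons than in radicles after PEG. It averaged 2.09 ± 0.0775 CPM in C5P and 64.6 ± 26.6 CPM in R5P (SD, n = 2 each), which is 30.9-fold lower (log2 fold change -4.95, standard error 0.55, edgeR adjusted p = 7e-06). In C1P it averaged 12.9 ± 8.07 CPM and in R1P 431 ± 5.01 CPM (SD, n = 2 each), which is 33.5-fold lower (log2 fold change -5.06, standard error 0.54, edgeR adjusted p = 3.9e-06). Every cotyledon library was below every radicle library in both comparisons. Without C1P replicate 2 the difference was -5.90 on the log2 scale. The C1P mean was 3.00% of the R1P mean, and of the 2001 genes with at least 100 CPM in R1P, 37 had a lower percentage. For C5P against R5P it was 3.23%, and 36 of the 1865 genes with at least 100 CPM in R5P, which do not include *MtPDF51* itself, were lower. Both percentages are a description chosen after the values were seen.

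Without PEG the tissues were not told apart for *MtPDF51*. The C5 libraries had 11 and 5 counts and the R5 libraries 1 and 7 counts, with a log2 fold change of 0.97 (95% interval -1.23 to 3.18, edgeR adjusted p = 0.44). The ratio of the summed counts, scaled by library size, was 1.98 with a counting interval of 0.799 to 5.34. The log2 value was 0.19 without C5 replicate 1, 0.20 without R5 replicate 1 and 2.81 without R5 replicate 2 (adjusted p = 0.93, 0.91 and 0.19). At so few counts, 1 library decides the size of the difference. The C1 libraries had 10 and 7 counts and the R1 libraries 9 and 34 counts, and the log2 fold change was -1.41 (95% interval -3.04 to 0.22, edgeR adjusted p = 0.13). This last value moved to -2.03 (adjusted p = 0.044) without R1 replicate 1 and to -0.22 (adjusted p = 0.89) without R1 replicate 2. These intervals leave room for differences of several fold in either direction at 5 mm and for a lower cotyledon level at 1 mm.

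*MtPDF32* was higher in cotyledons in all 4 comparisons. Without PEG it averaged 7.51 ± 3.74 CPM in C5 and 0.0974 ± 0.0813 CPM in R5 (SD, n = 2 each), with a log2 fold change of 6.18 (standard error 0.74, edgeR adjusted p = 1e-05). The R5 value rests on 5 counts in all, and the scaled ratio of 74.4 has a counting interval of 31.6 to 230. At 1 mm it averaged 58.2 ± 4.36 CPM in C1 and 1.03 ± 0.0647 CPM in R1, which is 56.2-fold higher (log2 fold change 5.81, standard error 0.56, edgeR adjusted p = 1.2e-06). No cotyledon library overlapped with a radicle library here.

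With PEG, *MtPDF32* was again higher in cotyledons. It averaged 39.2 ± 16.4 CPM in C5P and 12.7 ± 7.82 CPM in R5P, or 3.08-fold higher (log2 fold change 1.62, standard error 0.45, edgeR adjusted p = 0.0083). In C1P it averaged 195 ± 71.3 CPM and in R1P 26.8 ± 4.51 CPM, or 7.27-fold higher (log2 fold change 2.86, standard error 0.46, edgeR adjusted p = 0.00017), and without C1P replicate 2 the log2 fold change was 2.43 and still called. The C5P to R5P difference was not called without C5P replicate 2 (1.02, adjusted p = 0.11) or without R5P replicate 1 (1.10, adjusted p = 0.085), and it was 2.45 without R5P replicate 2. At 5 mm without PEG the log2 fold change was 5.55 without C5 replicate 1, 5.54 without R5 replicate 1 and 7.36 without R5 replicate 2, called each time.

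*MtPDF33* was likewise higher in cotyledons in the 4 comparisons. It averaged 25.2 ± 12.8 CPM in C5 and 0.727 ± 0.0435 CPM in R5, or 34.4-fold higher (log2 fold change 5.11, standard error 0.57, edgeR adjusted p = 5.5e-06). It averaged 57.7 ± 0.0759 CPM in C1 and 3.48 ± 1.06 CPM in R1, or 16.6-fold higher (log2 fold change 4.05, standard error 0.51, edgeR adjusted p = 1.4e-05). The groups did not overlap in either. After PEG it averaged 46.6 ± 16.0 CPM in C5P and 19.7 ± 6.31 CPM in R5P, with a log2 fold change of 1.24 (standard error 0.45, edgeR adjusted p = 0.034), and 358 ± 242 CPM in C1P and 42.2 ± 1.37 CPM in R1P, with a log2 fold change of 3.08 (standard error 0.47, edgeR adjusted p = 0.00011). Without C1P replicate 2 the last was 2.14 and still called. The C5P to R5P difference was not called without C5P replicate 2 (0.74, adjusted p = 0.26) or R5P replicate 1 (0.94, adjusted p = 0.20), and the C5 to R5 difference was 4.47 without C5 replicate 1.

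Tissue differences were common in these libraries. Of all genes tested, 40.1% were called in C5P against R5P (19.9% higher and 20.2% lower in cotyledons) and 37.6% in C1P against R1P (19.8% higher and 17.8% lower). Without PEG, 44.9% were called in C5 against R5 (21.2% higher and 23.7% lower) and 45.4% in C1 against R1 (23% higher and 22.4% lower). Against this background, 3 of the 3 genes were called in each PEG-treated comparison and 2 of 3 in each untreated one, so that a call in itself sets the defensins little apart. Both directions occurred among them, with *MtPDF51* called lower in cotyledons after PEG and the chromosome 2 pair called higher in each comparison.

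**Figure D2:**
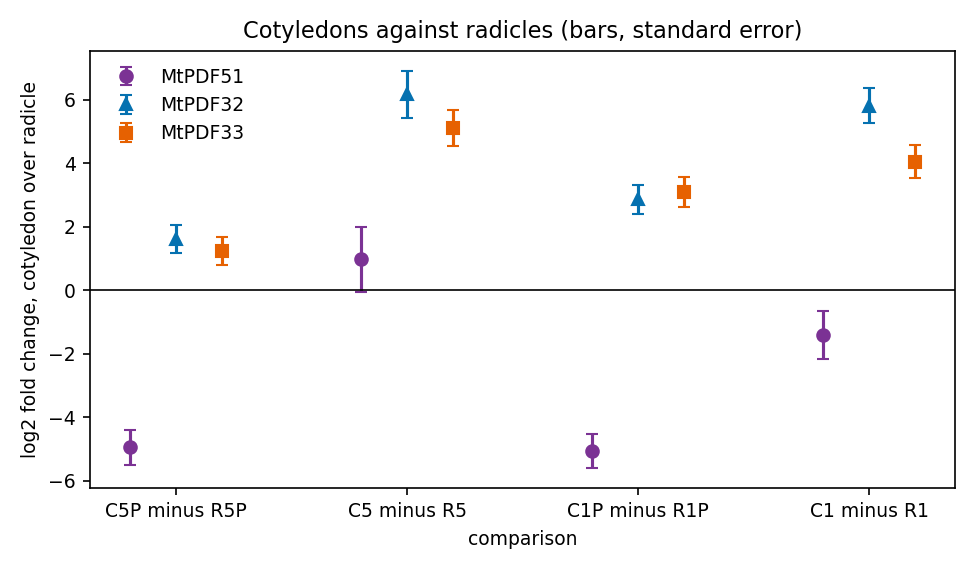
Fitted log2 fold change of cotyledon over radicle (y axis) for the 3 genes in each of the 4 comparisons of equal stage and treatment (x axis), with standard errors as bars. *MtPDF51* lies below 0 after PEG (-4.95 and -5.06), while *MtPDF32* and *MtPDF33* lie above 0 in each comparison.

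The second comparison asked whether the PEG treatment, chosen by the study for its effect in radicles, changed the defensins in cotyledons. It was fitted to the 8 cotyledon libraries and 23060 genes, in the same way. All 3 genes rose in C1P against C1, where 13.8% of all genes were called higher and 14.9% lower. *MtPDF51* had 139 and 291 counts in C1P, against 10 and 7 counts in C1, and its level was 39.5-fold higher (log2 fold change 5.30, standard error 0.63, edgeR adjusted p = 0.00068). *MtPDF32* averaged 195 ± 71.3 CPM in C1P and 58.2 ± 4.36 CPM in C1 (SD, n = 2 each) and was 3.29-fold higher (log2 fold change 1.72, standard error 0.42, edgeR adjusted p = 0.016). *MtPDF33* averaged 358 ± 242 CPM in C1P and 57.7 ± 0.0759 CPM in C1 and was 6.09-fold higher (log2 fold change 2.61, standard error 0.54, edgeR adjusted p = 0.0081).

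In each gene both C1P libraries lay above both C1 libraries, and replicate 2 of C1P was the higher one. Without that library the log2 fold change was 4.46 for *MtPDF51* (adjusted p = 0.0016) and 1.66 for *MtPDF33* (adjusted p = 0.025), and *MtPDF32* was not called (1.28, adjusted p = 0.068). *MtPDF32* was also not called without C1 replicate 1 (1.83, adjusted p = 0.086) or C1 replicate 2 (1.67, adjusted p = 0.11), and *MtPDF33* not without C1 replicate 1 (2.64, adjusted p = 0.062) or C1 replicate 2 (2.63, adjusted p = 0.065). The chloroplast-encoded share was 0.723% and 4.06% in C1P, against 0.477% and 0.328% in C1. Scaling by library totals in place of TMM lowered the median of all genes in this comparison by 0.573 on the log2 scale, and the 3 genes then stood at 4.67, 1.11 and 1.97, each still called.

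In C5P against C5, 2 of the 3 genes rose, *MtPDF51* and *MtPDF32*, where 9.02% of all genes were called higher and 12.1% lower. *MtPDF51* had 48 and 47 counts in C5P, against 11 and 5 counts in C5, and was 6.27-fold higher (log2 fold change 2.65, standard error 0.61, edgeR adjusted p = 0.015). *MtPDF32* averaged 39.2 ± 16.4 CPM in C5P and 7.51 ± 3.74 CPM in C5 (SD, n = 2 each) and was 5.07-fold higher (log2 fold change 2.34, standard error 0.44, edgeR adjusted p = 0.0063). *MtPDF33* averaged 46.6 ± 16.0 CPM in C5P and 25.2 ± 12.8 CPM in C5, with a log2 fold change of 0.84 (95% interval -0.34 to 2.02, edgeR adjusted p = 0.27), an interval that includes 0. The groups did not overlap for any of the genes, although *MtPDF33* came close, with 35.2 CPM in the lower C5P library and 34.3 CPM in the higher C5 library.

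The rise of *MtPDF51* at 5 mm was not called without C5P replicate 1 (2.74, adjusted p = 0.052), C5P replicate 2 (2.60, adjusted p = 0.061) or C5 replicate 2 (2.16, adjusted p = 0.079), and was 3.49 without C5 replicate 1. That of *MtPDF32* was called each time and was 3.01 without C5 replicate 1. The chloroplast-encoded share was 0.707% and 0.923% in C5P, against 0.367% and 0.313% in C5, and its part in the result was not tested.

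**Figure D3:**
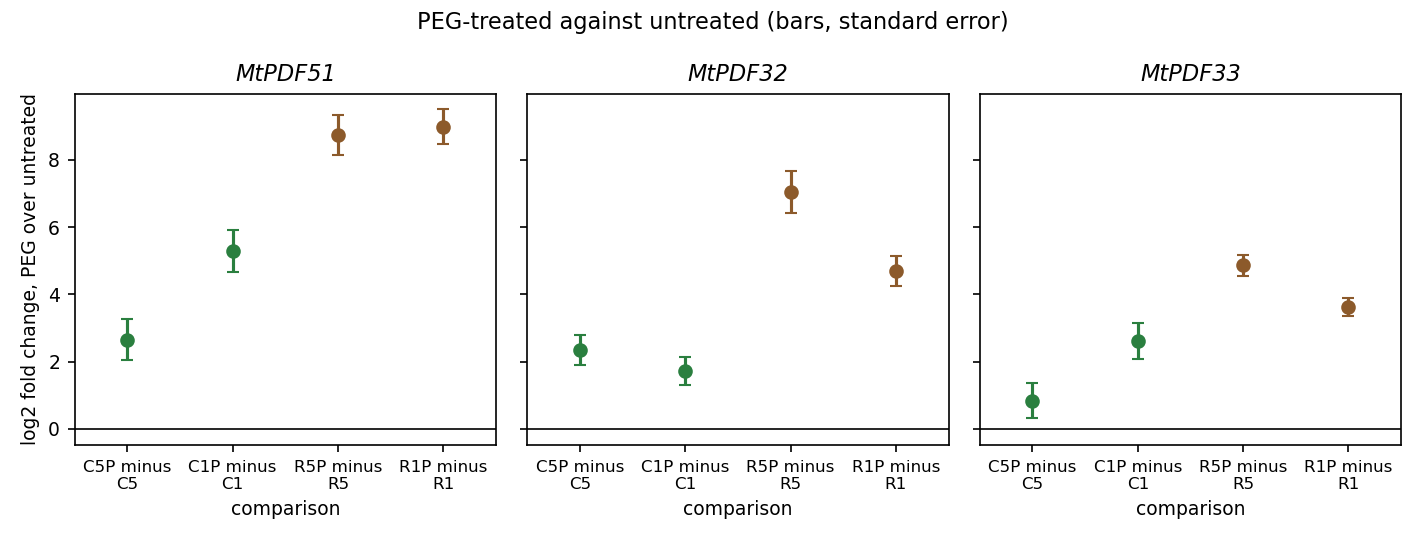
Fitted log2 fold change of PEG-treated over untreated seeds (y axis) in cotyledons (green) and radicles (brown) of both stages (x axis), 1 panel per gene, with standard errors as bars. The radicle values, which served the study in choosing the genes and are shown as a description, lie above the cotyledon values in each panel.

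Stage was compared within cotyledons, 5 mm against 1 mm. Without PEG, *MtPDF32* was lower at 5 mm, with 7.51 ± 3.74 CPM in C5 and 58.2 ± 4.36 CPM in C1 (SD, n = 2 each), 7.89-fold lower (log2 fold change -2.98, standard error 0.45, edgeR adjusted p = 0.0063). It was the 1 gene of the 3 to be called, where 2.92% of all genes were called lower. Without C1 replicate 1 it was not called (-2.87, adjusted p = 0.053), and without C5 replicate 1 it was -3.57. *MtPDF33* averaged 25.2 ± 12.8 CPM in C5 and 57.7 ± 0.0759 CPM in C1, and its log2 fold change of -1.22 did not pass the test (95% interval -2.40 to -0.03, edgeR adjusted p = 0.19). *MtPDF51*, at 5 to 11 counts per library in these groups, had a log2 fold change of -0.02 (95% interval -1.57 to 1.53, edgeR adjusted p = 0.99).

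With PEG, all 3 genes were lower in C5P than in C1P, against 2.21% of all genes called lower. The log2 fold change was -2.67 for *MtPDF51* (standard error 0.53, edgeR adjusted p = 0.031), -2.36 for *MtPDF32* (standard error 0.43, edgeR adjusted p = 0.025) and -2.98 for *MtPDF33* (standard error 0.55, edgeR adjusted p = 0.025). Both C5P libraries lay below both C1P libraries for each gene. Every one of these calls needed C1P replicate 2, without which the values were -1.83, -1.92 and -2.04 (adjusted p = 0.13, 0.074 and 0.058). None was called without C5P replicate 1 (-2.59, -1.94 and -2.63, with adjusted p = 0.21, 0.19 and 0.19) or without C5P replicate 2 (-2.72, -2.87 and -3.40, with adjusted p = 0.11, 0.063 and 0.082) either.

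Whether the PEG difference in cotyledons itself depended on stage was tested as an interaction, in which 1.22% of all genes were called and none of the 3 defensins, by edgeR or by DESeq2. The difference of log2 fold changes, 5 mm minus 1 mm, was -2.66 for *MtPDF51* (95% interval -4.64 to -0.67, edgeR adjusted p = 0.15), 0.63 for *MtPDF32* (-0.73 to 1.98, adjusted p = 0.56) and -1.77 for *MtPDF33* (-3.43 to -0.11, adjusted p = 0.22). For *MtPDF51* and *MtPDF33* the intervals excluded 0 while the adjusted p missed the threshold. For *MtPDF51* it passed without C1P replicate 1 (-3.19, adjusted p = 0.049) and was -1.81 without C1P replicate 2 (adjusted p = 0.31) and -1.84 without C5 replicate 1 (adjusted p = 0.49). *MtPDF33* stood at -0.81 without C1P replicate 2 (adjusted p = 0.49) and at -1.12 without C5 replicate 1 (adjusted p = 0.55). *MtPDF32* stood at 1.07 without C1P replicate 2 (adjusted p = 0.41) and at 1.26 without C5 replicate 1 (adjusted p = 0.42).

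In radicles, where the study chose the genes, the values are given without a test. *MtPDF51* had 8397 and 8534 counts in R1P, against 9 and 34 counts in R1, with a fitted log2 fold change of 8.99 (standard error 0.51). At 5 mm it had 956 and 1833 counts in R5P, against 1 and 7 counts in R5, and the scaled ratio of the sums was 414 with a counting interval of 210 to 960, which does not hold the spread between libraries. The fitted log2 fold change at 5 mm was 8.74 and became 7.97 without R5 replicate 1 and 10.57 without R5 replicate 2, and that at 1 mm became 8.37 without R1 replicate 1 and 10.18 without R1 replicate 2. Its level was thus far above that of untreated radicles at both stages. The study describes the cluster of these genes, as a set, as raised only in R1P, whereas *MtPDF51* was also higher in R5P than in R5 or R1. Among PEG-treated radicles it was lower in R5P than in R1P, at 64.6 ± 26.6 CPM and 431 ± 5.01 CPM (SD, n = 2 each), and the log2 fold change was -2.71 (standard error 0.36), and -3.25 without R5P replicate 2.

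The chromosome 2 pair moved the same way in radicles with smaller ratios. *MtPDF32* was 26.1-fold higher in R1P than in R1 (log2 fold change 4.71, standard error 0.45) and 131 times higher in R5P than in R5 by scaled counts (counting interval 55.7 to 405). *MtPDF33* was 12.3-fold higher in R1P than in R1 (log2 fold change 3.62, standard error 0.27) and 27.3 times higher in R5P than in R5 by scaled counts (counting interval 19.7 to 39.1). The counts of both were lowest in R5, at 5 in all for *MtPDF32* and 37 for *MtPDF33*. Between R5P and R1P the log2 fold change was -1.05 (standard error 0.36) for *MtPDF32* and -1.07 (standard error 0.24) for *MtPDF33*, and -1.92 and -1.48 without R5P replicate 2. Against R1, untreated R5 radicles held 0.184 times the *MtPDF51*, 0.0952 times the *MtPDF32* and 0.211 times the *MtPDF33* by scaled counts, with counting intervals of 0.0748 to 0.396, 0.0297 to 0.237 and 0.144 to 0.302. These cover counting error only. The fitted log2 value of *MtPDF51* was -2.46, but -1.27 without R1 replicate 2, -3.09 without R1 replicate 1, -1.69 without R5 replicate 1 and -4.29 without R5 replicate 2, and that of *MtPDF32* was -3.39, but -2.76 without R5 replicate 1 and -4.57 without R5 replicate 2. For R5P against R5, *MtPDF32* was fitted at 7.05, and at 6.19 without R5P replicate 2, 6.41 without R5 replicate 1 and 8.23 without R5 replicate 2.

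The PEG difference was then compared between tissues at 5 mm by an interaction in the 16-library model. All 3 genes were called, with a PEG log2 fold change that was smaller in cotyledons than in radicles. Of all genes, 9.47% were called in that direction and 11.5% in the other. Cotyledon minus radicle, the difference of log2 fold changes was -5.92 for *MtPDF51* (standard error 1.18, edgeR adjusted p = 0.0033), -4.55 for *MtPDF32* (standard error 0.92, edgeR adjusted p = 0.0037) and -3.87 for *MtPDF33* (standard error 0.71, edgeR adjusted p = 0.0020). R5P and R5 were among the libraries on which the study clustered the genes, so that this test is not independent of their choice. Of the other DT-DAR-DEGs, chosen in the same way, 83 were tested here, and 13 were called higher and 19 lower in this interaction. For the chromosome 2 pair the C5 level was already above R5, which enters the same difference. The radicle ratios rest on 8, 5 and 37 counts in R5 in all. On the CPM scale the mean of *MtPDF51* also rose less in cotyledons, but those of the pair did not. *MtPDF32* went from 7.51 CPM in C5 to 39.2 in C5P, and from 0.0974 in R5 to 12.7 in R5P. *MtPDF33* went from 25.2 CPM in C5 to 46.6 in C5P, and from 0.727 in R5 to 19.7 in R5P.

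The call of *MtPDF51* was lost without C5 replicate 1 (-5.14, adjusted p = 0.073). It was -5.16 without R5 replicate 1 and -7.76 without R5 replicate 2. *MtPDF32* stayed called but moved to -5.18 without C5P replicate 2, -3.93 without C5 replicate 1, -3.73 without R5P replicate 2, -3.92 without R5 replicate 1 and -5.74 without R5 replicate 2, and *MtPDF33* to -3.23 without C5 replicate 1. At 1 mm, where R1P and R1 had chosen the genes, the same difference stood at -3.66 (standard error 0.98), -2.95 (standard error 0.67) and -0.97 (standard error 0.64) for *MtPDF51*, *MtPDF32* and *MtPDF33* as a description, and at -4.49, -3.38 and -1.91 without C1P replicate 2. For *MtPDF51* it was also -3.04 without R1 replicate 1 and -4.85 without R1 replicate 2.

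Stage differences without PEG were not shown to depend on tissue for any of the 3 genes, by edgeR or by DESeq2, with 5.44% of all genes called. Cotyledon minus radicle, the difference of the 5 mm to 1 mm log2 fold changes was 2.38 for *MtPDF51* (95% interval -0.37 to 5.13, edgeR adjusted p = 0.33), 0.36 for *MtPDF32* (-1.72 to 2.45, adjusted p = 0.91) and 1.05 for *MtPDF33* (-0.50 to 2.61, adjusted p = 0.47). R5, which enters each value, held 8, 5 and 37 counts of *MtPDF51*, *MtPDF32* and *MtPDF33* in all. With 1 library left out the value ran from 1.19 (without R1 replicate 2) to 4.22 (without R5 replicate 2) for *MtPDF51*, from -0.27 (without R5 replicate 1) to 1.55 (without R5 replicate 2) for *MtPDF32* and from 0.42 (without C5 replicate 1) to 1.5 (without C5 replicate 2) for *MtPDF33*, and none was called.

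The chromosome 2 genes carry neighbouring identifiers, and similar transcripts can share reads, which the counting then divides between them. Of the 48 values of the 3 genes, 8 were not whole numbers, all of them for *MtPDF32* and *MtPDF33* in the C1P and C1 libraries, so that at least there reads were shared with another transcript. In each of these libraries the values of the pair add up to a whole number, as with reads divided between them. In C1P replicate 2 they were 3832.262 and 8244.738, or 12077 together. *MtPDF33* made up 56.0% and 53.2% of the pair's counts in C5P and 77.1% and 76.9% in C5. It made up 56.4% and 68.3% in C1P and 48.5% and 51.1% in C1. At 5 mm the share in cotyledons was thus lower with PEG than without, and at 1 mm it was higher. Exact 95% intervals, which cover counting error only, were 53.5% to 58.6% and 51.2% to 55.3% in C5P, and 74.5% to 79.6% and 73.3% to 80.3% in C5.

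In radicles the share of *MtPDF33* was 68.0% and 57.0% in R5P, 95% and 81.8% in R5, 59.0% and 63.6% in R1P, and 81.1% and 71.7% in R1. PEG-treated radicles lay below untreated ones at each stage. The R5 values rest on 20 and 22 counts of the pair, with exact intervals of 75.1% to 99.9% and 59.7% to 94.8%. This share was looked at after the values were seen and carries no test. With the counts of the pair summed before the fit, the tissue calls held in each of the 4 comparisons, while the PEG difference at 5 mm was 1.35 (edgeR adjusted p = 0.073) and the 5 mm to 1 mm difference without PEG was -1.85 (edgeR adjusted p = 0.049), so that the sum was called like *MtPDF33* alone in the first and like *MtPDF32* alone in the second.

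**Figure D4:**
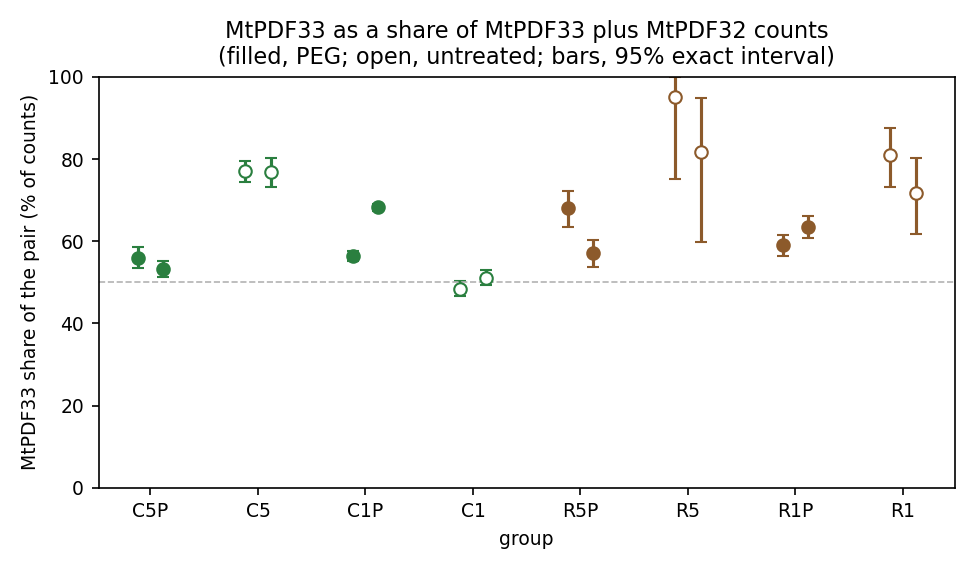
Share of the *MtPDF33* plus *MtPDF32* counts assigned to *MtPDF33* (y axis, % of counts) in each library by group (x axis), filled for PEG and open for untreated, with exact 95% binomial intervals as bars and a dashed line at equal shares. The share in C5 was 77.1% and 76.9%, above C5P, while in C1 it was 48.5% and 51.1%, below C1P.

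Across the 16 libraries, log2 CPM of *MtPDF32* and *MtPDF33* had a Pearson r of 0.982. *MtPDF51* had r of 0.456 with *MtPDF32* and 0.437 with *MtPDF33*. Correlations here describe 16 libraries in 8 groups and are led by the group differences, and reads divided between the chromosome 2 genes enter their r.

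Over 11883 genes that averaged 10 CPM or more, the pattern of *MtPDF51* was most like that of MtrunA17Chr3g0099561 (r = 0.963), annotated as a putative transcription regulator of the Rcd1 type, MtrunA17Chr2g0329901 (r = 0.952), a putative lipoxygenase acting on linoleate, and MtrunA17Chr1g0182341 (r = 0.950), a putative transposase-derived gene. These differed in range. The lipoxygenase stood at 381 and 396 CPM in R5P and 1561 and 1563 CPM in R1P, against at most 1.84 CPM in any R5 or R1 library. In cotyledons it was called lower than in radicles after PEG (log2 fold change -3.89 in C5P against R5P and -3.72 in C1P against R1P, edgeR adjusted p = 0.00024 and 0.00032). Unlike *MtPDF51*, it was called higher in C5 than in R5 (log2 fold change 3.24, edgeR adjusted p = 0.033), with 0 and 0.194 CPM in R5. In C1 against R1 it was not called (1.04, edgeR adjusted p = 0.25). MtrunA17Chr3g0099561 varied only between 32.8 and 90.4 CPM. The lipoxygenase belongs to the same 88 genes as the defensins.

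The pattern of *MtPDF32* was most like that of MtrunA17Chr8g0340771 (r = 0.986), annotated as a GTPase of protein synthesis, MtrunA17Chr1g0179771 (r = 0.983), a gene with a DnaJ-type domain, and MtrunA17Chr6g0488811 (r = 0.978), annotated as an APEM9 protein, which in *Arabidopsis* acts in peroxisome formation. That of *MtPDF33* was most like those of MtrunA17Chr1g0169301 (r = 0.990), annotated as hydroxyethylthiazole kinase, an enzyme of thiamine salvage, MtrunA17Chr7g0246231 (r = 0.981) and MtrunA17Chr8g0352931 (r = 0.978), of which the last 2 carry no functional annotation. The C1P means of all 6 lay above their means in each radicle group.

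Neighbouring identifiers were looked at on each side. Before the chromosome 2 pair, MtrunA17Chr2g0317731, annotated as a putative protein-disulfide reductase, had r of 0.886 with *MtPDF32*. It was higher in C1P than in C1 (log2 fold change 1.88, edgeR adjusted p = 0.0032), higher in C5P than in C5 (1.22, adjusted p = 0.022) and higher in C1P than in R1P (1.57, adjusted p = 0.00041). After the pair, MtrunA17Chr2g0317761 had r of 0.0307 with *MtPDF32*. The outer identifiers on chromosome 2, MtrunA17Chr2g0317721 and MtrunA17Chr2g0317771, held 4 and 13 counts in all 16 libraries. Around *MtPDF51*, r with it was -0.07 for MtrunA17Chr8g0385281, -0.41 for MtrunA17Chr8g0385291 and 0.02 for MtrunA17Chr8g0385321, and MtrunA17Chr8g0385311 held 27 counts in all.

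Of the 2 other knottin genes of the study's lists, *MtPDF46* (MtrunA17Chr8g0337781) was also higher in cotyledons than in radicles, while the other was not. It stood at 8.59 and 17.4 CPM in C5P, 20.6 and 4.25 CPM in C5, 27.4 and 70.6 CPM in C1P and 14.2 and 13.9 CPM in C1. In radicles it was at 2.63 and 2.59 CPM in R5P, 0.0798 and 0.0387 CPM in R5, 6.63 and 4.76 CPM in R1P and 0.246 and 0.0384 CPM in R1. Cotyledons were higher in C5P against R5P (log2 fold change 2.31, edgeR adjusted p = 0.0093) and in C1P against R1P (3.10, adjusted p = 0.0012), as for *MtPDF32* and *MtPDF33*. They were called higher without PEG as well (edgeR adjusted p = 3e-05 in C5 against R5 and 3.6e-05 in C1 against R1), where no radicle library held more than 0.246 CPM. With PEG it was not called in cotyledons, with 1.78 at 1 mm (adjusted p = 0.082) and 0.04 at 5 mm (adjusted p = 0.98). The other one, MtrunA17Chr8g0339651, was at 1.56 and 2.50 CPM in C1P, against 7.15 and 5.79 CPM in C1, and was lower there (log2 fold change -1.70, edgeR adjusted p = 0.030). By tissue it was not called in any comparison. Its log2 fold changes were 0.09 in C5P against R5P, 0.33 in C1P against R1P, -0.11 in C5 against R5 and 0.49 in C1 against R1.

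Of all genes tested in cotyledons, 13.8% were called higher in C1P against C1 and 9.02% in C5P against C5. Of the 4 other defence-type genes among the 88, 1 was called higher in C1P against C1 and the same 1 in C5P against C5. This was *MtPhyCys27*, a cystatin, that is an inhibitor of cysteine proteases, with 73.1 and 83.7 CPM in C5P, against 0.632 and 1.12 CPM in C5, and 162 and 332 CPM in C1P, against 3.87 and 3.41 CPM in C1 (log2 fold change 6.39 and 6.05, edgeR adjusted p = 9e-05 and 8.6e-05). *MtKunitz19*, a protease inhibitor of the Kunitz type, was lower in cotyledons in all 4 tissue comparisons, with log2 fold changes between -4.71 and -3.59, with PEG and without it. The lipid transfer protein gene *MtnsLTP20* had log2 fold changes of 0.03 and 1.04 for C5P against C5 and C1P against C1, and the thaumatin family gene MtrunA17Chr5g0405581 had 0.27 and 0.71, none of them called.

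Among the other 85 DT-DAR-DEGs, 80 passed the filter on low counts in cotyledons. In C1P against C1, 61 of them were called higher, against 13.8% of all genes, and 19 were not called. Their log2 fold changes had a median of 3.30, against -0.08 over all genes tested. In C5P against C5, 55 were called higher and 1 lower, against 9.02% and 12.1% of all genes. The median was 3.33, against -0.05 over all genes. Genes at the floor of 3 counts in a group, entered at their bound, moved these medians to 3.22 and 3.20. *MtPDF51* lay above the first median, and *MtPDF32* and *MtPDF33* below both. The genes of late embryogenesis abundant (LEA) and oleosin proteins in the list, which protect drying cells and coat oil bodies, were called higher in 7 of 7 cases at each stage, with medians of 7.84 and 7.17 at 1 mm and 5 mm. The study chose these genes for a rise in radicles after the same treatment, which is not independent of a rise in cotyledons.

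By tissue, genes of the same list were called in both directions, with more of them higher than lower in cotyledons in each comparison. Of 83 tested, 32 were higher and 15 lower in C5P against R5P, 21 and 17 in C1P against R1P, 33 and 16 in C5 against R5, and 29 and 15 in C1 against R1, with medians of 0.77, 0.26, 0.98 and 0.73, or 0.66, 0.26, 0.92 and 0.79 with genes at the floor entered at their bound. *MtPDF32* and *MtPDF33* lay above these medians in each comparison, and *MtPDF51* lay below the first 4 in each comparison, though in C5 against R5 only by 0.97 against 0.98, and there above the median with bounds. In the same order, 19.9%, 19.8%, 21.2% and 23% of all genes were called higher in cotyledons, and 20.2%, 17.8%, 23.7% and 22.4% lower. The medians of all genes were 0, 0.03, -0.02 and 0.04. The list was chosen on the radicle libraries, so that its counts and medians by tissue are not independent of that choice. High R1P over R1 favours lower cotyledon values in C1P against R1P and higher ones in C1 against R1.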

How the data were processed

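The authors mapped quality-controlled single-end BGISEQ-500 reads to the Mtv5 transcriptome (annotation r1.6) with Salmon version 1.2 and deposited estimated counts per gene, which need not be whole (15.3% to 21.6% of genes per library were not). They were rounded to whole numbers here. edgeR version 4.0.16 in R version 4.3.3 (TMM factors, filterByExpr, quasi-likelihood test, Benjamini-Hochberg adjustment over all genes tested) was fitted to 8 cotyledon libraries (23060 genes), 8 radicle libraries (23793 genes) and 16 libraries (25524 genes), with 1 coefficient per group, and tested on simulated data. Intervals of log2 fold changes use a t quantile at 95%. For correlations, log2 CPM used a prior count of 2. The 3 genes, the lists and the tests were chosen with earlier results of these data known. Named genes were the members, for each the 3 genes of highest r, 2 identifiers on each side, other genes annotated knottin or defensin, and 4 other defence-type genes. Alternatives were RLE factors, DESeq2 version 1.42.0, no filter, library totals in place of TMM, a replicate block, other libraries in the model, the pair summed, and each replicate left out. At this depth a floor of 3 counts is at most 0.192 CPM. Annotations came from the study's gene lists. Lists of nuclear tissue markers matched too few identifiers and were not used, and sequences and coordinates were not used.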

Additional observations from a re-analysis of the deposited data

Results flagged for a closer look

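The PEG difference in log2 level differed between cotyledons and radicles at 5 mm for each of the 3 genes by the interaction in edgeR's 16-library model. The difference of log2 fold changes, cotyledon minus radicle, was -5.92 for *MtPDF51*, -4.55 for *MtPDF32* and -3.87 for *MtPDF33* (edgeR adjusted p = 0.0033, 0.0037 and 0.0020). For each gene both C5P libraries lay above both C5 libraries, and both R5P libraries above both R5 libraries. The choice of the genes on radicle libraries enters these values. R5 held only 8, 5 and 37 counts of the 3 genes in all, in the same order. For *MtPDF51* the value was -5.14 without C5 replicate 1 and -7.76 without R5 replicate 2.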

How the results depend on the processing

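Of 387 tested values of the 3 genes under alternatives, 349 kept their direction and their side of the threshold, 27 lost the call, 4 gained it and 7 changed sign. Of 172 untested radicle values and 1 mm interactions, 30 moved by more than the SD between replicates and 0 changed sign. Where 3 values are given, they stand for *MtPDF51*, *MtPDF32* and *MtPDF33* in this order. The cause was not tested unless one is named.

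The difference of *MtPDF51* between C5 and C1 (-0.02) was 0.0042 with DESeq2 and 0.0010 with RLE factors, and -0.79 to 0.55 with a replicate left out, among them 0.28 without C1 replicate 1. Its C1 to R1 difference was called with no filter on low counts (-1.42, edgeR adjusted p = 0.045) and ranged from -2.03 to -0.22 with a replicate left out. With the chromosome 2 pair summed, C5P against C5 was 1.35, C5 against C1 -1.85 and the cotyledon stage by PEG interaction -0.88, opposite in sign to *MtPDF32* alone.

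With a replicate left out, which leaves fewer samples, values ranged from 1.28 to 2.06 (*MtPDF32*) and 1.66 to 3.17 (*MtPDF33*) in C1P against C1, from 2.16 to 3.49 (*MtPDF51*) in C5P against C5, from -3.57 to -2.51 (*MtPDF32*) in C5 against C1, and from -3.21 to -1.83, -2.87 to -1.92 and -3.55 to -2.04 in C5P against C1P. They ranged from -3.19 to -1.81 (*MtPDF51*) in the cotyledon stage by PEG interaction, from 1.02 to 2.45 (*MtPDF32*) and 0.74 to 1.61 (*MtPDF33*) in C5P against R5P, from -7.76 to -5.14 (*MtPDF51*) in the tissue by PEG interaction at 5 mm, and from -0.27 (-0.26 without C5 replicate 1) to 1.55 (*MtPDF32*) in the tissue by stage interaction. A lone library is assumed to vary like the other groups.

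Genes called in C5P against C1P numbered 1433, against 2954 with DESeq2, 2837 with no filter, 3278 with all 16 libraries and 129 to 2968 with a replicate left out. Those of the cotyledon stage by PEG interaction numbered 282, against 1767, 1186, 1870 and 1 to 1009. Those of the tissue by stage interaction numbered 1389, against 2100 with DESeq2 and 579 to 1434. Left-out replicates gave 3323 to 6970 in C1P against C1 (6613), 2822 to 4114 in C5P against C5 (4879), 407 to 1341 in C5 against C1 (1988) and 3313 to 6289 in the tissue by PEG interaction at 5 mm (5360). With library totals the share of calls that were higher was 19.9% in C1P against C1 (48% with TMM), 90.2% in C5P against C1P (64.5%) and 76.3% in the cotyledon stage by PEG interaction (45.7%), and the median of all genes moved by 0.417 and 0.476 in the last 2 by -0.133 in C1P against R1P, 0.111 in C1 against R1 and 0.101 in C5P against R5P.

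Replicate numbers were not shown to pair the samples, as deviations of same-numbered libraries correlated between -0.34 and 0.18, over 0.1 in 5 of 28 pairs of groups. With the replicate number as a block, C5P against C1P gave -2.64, -2.36 and -2.94 (edgeR adjusted p = 0.078, 0.062 and 0.058) and 391 calls, C5 against C1 1260 calls and the cotyledon stage by PEG interaction 2 calls, and no other call of the 3 genes changed. Depth limits *MtPDF51* in untreated seeds, *MtPDF32* in R5 and R1 and *MtPDF33* in R5, at 34 counts or fewer per library.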
